A study of Mus musculus with 7 samples.

Results

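The colony-stimulating factors are secreted proteins that keep myeloid cells alive, make them divide and set what they become. The 7 genes described here are Csf1 and Il34, which encode a pair of ligands of one receptor, Csf1r, which encodes that receptor, Csf2, which encodes GM-CSF, Csf2ra and Csf2rb, which encode the subunits of the GM-CSF receptor, and Csf3r, which encodes the receptor of the granulocyte factor G-CSF. They were found by symbol among the 33696 genes of the deposited matrices, and all 7 were listed there. Their unique molecular identifiers (UMIs, each standing for 1 captured transcript) were followed in malignant peripheral nerve sheath tumors (MPNSTs) of the mouse, across tumor, stromal, T/NK and myeloid cells and between irradiated and untreated tumors.

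In the JW23.3 model, cells of one Nf1/Trp53 mutant mouse MPNST line from a male were placed under the skin of wild-type female C57/B6 mice aged 5 to 6 weeks, so that tumor and host cells differ in sex. Mice were randomized on day 7, the radiotherapy (RT) group received 5 daily fractions of 2 Gy to the tumor, with the rest of the body shielded, the control group received none, and all tumors were taken on day 21. There were 4 irradiated and 3 control tumors, each a biological replicate by its label and each 1 droplet library read at the 3′ end of transcripts. The same line was placed in every mouse, the hosts kept their own immune cells, and the tumors were dissociated with papain.

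The 7 libraries held 2859 to 8452 cells and 53496570 to 153044123 UMIs, with a median of 6058.5 to 17930.5 UMIs per cell. Of 39537 cells, 34301 passed filters on UMIs, genes, mitochondrial share and ribosomal share. Cells were then assigned by the summed UMIs of fixed marker lists that contain none of the 7 genes, and each class is therefore a range of marker levels rather than a proven cell type. The tumor class had 16434 cells, the myeloid class 12596, the T/NK class 1441 and the stromal class 905. The number of cells within 1.5-fold of the threshold was 920 for the tumor list, 1059 for the myeloid list and 166 for the T/NK list. Among the stromal lists it was 2320 for fibroblasts, where 1164 cells were at or over the threshold, 112 for endothelial cells and 49 for pericytes. The lists set the classes, so their markers are no separate check of them. All 15 myeloid and all 12 T/NK markers were highest in their own class. In the tumor class 12 of 15 were, and the Schwann lineage markers Sox10 and Ngfr were near 0 there, at 0.030 and 0.037 CPM (UMIs of a gene per 1000000 UMIs). Xist, an RNA of the female hosts, was required to be absent from tumor cells. Libraries shared few barcodes, with 190 of 39347 distinct barcodes found in more than 1 library. By cell number, UMIs and genes per cell and mitochondrial share the libraries were split into 2 sets that the labels do not name. Set 1 holds irradiated 1, control 2 and control 3, and set 2 the other 4 libraries. Of 63 splits compared, this one left the lowest share of the variation within sets, 0.489, and the next left 0.544. The sets are thus loosely defined. The labels give no batch.

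CSF1 and IL-34 are unrelated in sequence yet both bind CSF1R, a receptor tyrosine kinase that macrophages and their precursors depend on, and macrophages are the most numerous host cells in many nerve sheath tumors. GM-CSF binds the alpha subunit encoded by Csf2ra and signals through the beta subunit encoded by Csf2rb, which it shares with IL-3 and IL-5. G-CSF acts through CSF3R, the receptor best known on neutrophils. All of these receptors feed into JAK-STAT, PI3K and MAPK signaling. Levels are CPM within the same cells of the same tumor. They are not divided by transcript length, so levels are compared between cells and not between genes.

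By the GENCODE M21 annotation of GRCm38, Csf1 lies on the minus strand at chr3:107741048-107760469, Il34 on the minus strand at chr8:110741829-110805924 and Csf2 on the minus strand at chr11:54247271-54249667. Csf2ra lies on the minus strand at chr19:61223957-61228429, Csf2rb on the plus strand at chr15:78325752-78353847 and Csf3r on the plus strand at chr4:126024550-126044440. The 250 bases before the RefSeq start (GRCm38.p6, table with 4 of the 7 genes) are shown for 1 ligand gene read mainly in tumor cells and 2 receptor genes read mainly in myeloid cells, because their levels across the 4 classes ran in opposite directions. Each is printed 5′ to 3′ on the strand of the gene, and capitals mark GAGGAA, the core of sites bound by the myeloid factor PU.1, searched on both strands.
Csf1, chr3:107760470-107760719, minus strand: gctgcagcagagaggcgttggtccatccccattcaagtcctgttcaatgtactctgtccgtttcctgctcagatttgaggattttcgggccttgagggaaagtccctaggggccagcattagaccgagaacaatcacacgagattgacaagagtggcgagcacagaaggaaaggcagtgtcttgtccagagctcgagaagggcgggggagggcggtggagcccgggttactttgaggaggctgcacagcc
Csf2ra, chr19:61228419-61228668, minus strand: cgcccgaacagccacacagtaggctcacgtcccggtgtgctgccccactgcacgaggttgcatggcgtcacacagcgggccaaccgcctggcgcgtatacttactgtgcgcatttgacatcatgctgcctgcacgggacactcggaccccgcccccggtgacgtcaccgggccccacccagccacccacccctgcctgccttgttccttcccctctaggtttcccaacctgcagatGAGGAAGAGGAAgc
Csf3r, chr4:126024409-126024658, plus strand: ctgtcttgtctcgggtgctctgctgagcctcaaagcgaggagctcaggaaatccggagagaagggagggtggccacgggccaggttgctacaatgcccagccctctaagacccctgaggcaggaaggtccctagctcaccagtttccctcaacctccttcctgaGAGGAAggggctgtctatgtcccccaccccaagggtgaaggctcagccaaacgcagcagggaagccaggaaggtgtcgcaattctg
The letters occurred 2 times, side by side and ending 2 bases before the start, in the Csf2ra window, 1 time in the Csf3r window and in no place of the Csf1 window. Of 32851 promoter windows of this length, 23.3% held them on either strand, so their presence is common and says nothing of binding. Spi1, the gene of PU.1, was at 410 CPM in myeloid cells and 1.21 CPM in tumor cells.

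Among the 4 classes Csf1, which encodes the main growth factor of macrophages, was highest in tumor cells. Its level in tumor cells was 190, 228, 270 and 318 CPM in irradiated tumors 1 to 4 and 253, 201 and 178 CPM in control tumors 1 to 3. The 7 tumors thus spanned less than a doubling, with the highest value in irradiated 4 and the lowest in control 3. Stromal cells held 75.7 ± 14.9 CPM (SD, n = 7), T/NK cells 19.1 ± 15.7 CPM and myeloid cells 5.04 ± 1.54 CPM. The tumor level exceeded the stromal level in 7 of 7 tumors, by 1.61 ± 0.34 on the log2(CPM + 1) scale (exact sign-flip permutation test within tumors, two-sided, p = 0.0156, the smallest that 7 tumors allow, adjusted p = 0.0345 over 42 neighboring pairs). The stromal level exceeded the T/NK level in 7 of 7 tumors as well (exact permutation p = 0.0156, adjusted p = 0.0345), a call that was lost with halved marker thresholds. T/NK cells exceeded myeloid cells in 6 of 7 tumors, which did not pass (exact permutation p = 0.0313, adjusted p = 0.0547).

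**Figure D1:**
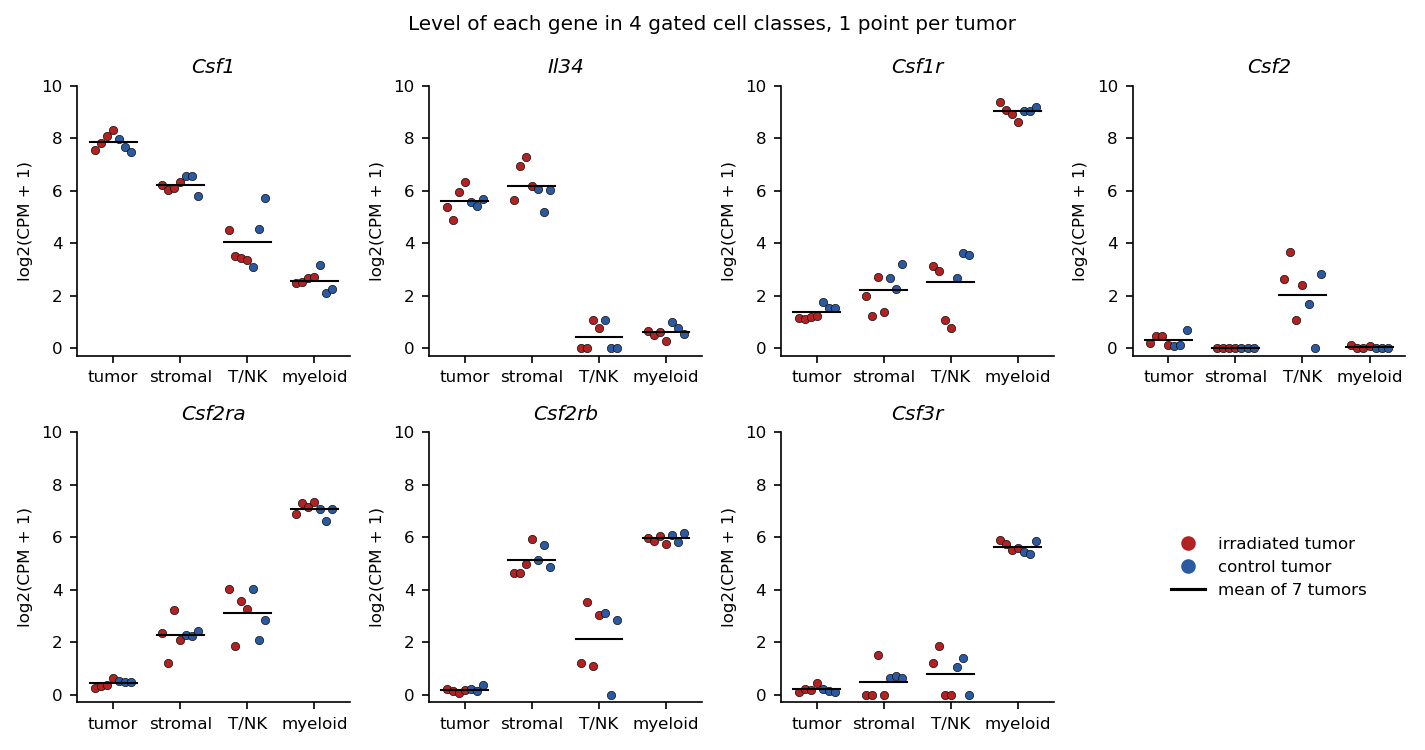
Level of each of the 7 genes, as log2(CPM + 1) on the vertical axis, in tumor, stromal, T/NK and myeloid cells, with 1 point per tumor, red for the 4 irradiated and blue for the 3 control tumors, and a line at the mean of 7. Csf1 is highest in tumor cells, Csf1r, Csf2ra and Csf3r are highest in myeloid cells, Il34 is shared by tumor and stromal cells and Csf2rb by myeloid and stromal cells.

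The T/NK value of Csf1 rested partly on 1 cell. Control 3 read 51.8 CPM there against 7.59 to 22.4 CPM in the other 6 tumors, and a single cell of the T gate carried 24 of the 99 Csf1 UMIs of all T cells. Without that cell the T gate of control 3 fell from 59.1 to 17.5 CPM. In myeloid cells Csf1 stood at 2.31% of its tumor level and Il34 at 1.16% of its own. Free RNA from tumor cells can give UMIs in any droplet, and its part in these low myeloid values was not tested.

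Csf1 was detected widely among tumor cells. At full depth 79.5% of tumor cells had at least 1 Csf1 UMI, with a median of 3 and a maximum of 238 per cell, and the 10% of cells with most UMIs held 44.3% of them. After every cell was thinned to 2000 UMIs, which left out 540 irradiated and 426 control tumor cells that were shallower, 30.6% had a Csf1 UMI, with 26.1% to 42.2% over the 7 tumors. In the macrophage gate, where the gene should be low, the share was 2.98% at full depth and 0.748% after thinning. Tumor cells were also the deeper class, with a median of 22026.5 UMIs against 6534.5 in macrophage gated cells, so the thinned shares are the comparable ones.

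Within the host cells Csf1 was uneven. Pooled over the 7 tumors, the fibroblast gate (215 cells) read 122 CPM (95% exact Poisson interval 110 to 136, counting error only, as for all such intervals here), the endothelial gate (485 cells) 63.1 CPM (56.0 to 70.7) and the pericyte gate (205 cells) 45.1 CPM (36.3 to 55.3). Fibroblast gated cells exceeded endothelial cells in 7 of 7 tumors, by 0.83 ± 0.44 log2 units (exact permutation p = 0.0156, adjusted p = 0.0345). That count includes irradiated 4, whose fibroblast gate held 2 cells and 2 Csf1 UMIs, at 83.7 CPM against 78.2 CPM in endothelial cells. With doubled thresholds the fibroblast level was no longer the higher, in the 6 tumors that could be compared. Endothelial and pericyte levels did not differ beyond their spread (4 of 7 tumors, exact permutation p = 0.125, adjusted p = 0.188).

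Among myeloid gates the pooled Csf1 level was highest in granulocyte gated cells, at 135% of the pooled tumor cell level. They read 302 CPM (221 to 403), from 46 UMIs in 13 of 59 cells, while macrophage gated cells read 4.43 CPM (4.01 to 4.89) from 10966 cells. The 59 cells had a median of 2077 UMIs, and individual tumors contributed 2 to 21 of them. By tumor, the granulocyte level was 0 in irradiated 3 and 21.1 CPM in control 2, both below the tumor cells of the same tumor. In the other 5 the granulocyte level was 228 to 622 CPM, each above the tumor cells of the same tumor. It exceeded the monocyte level in 6 of 7 tumors, which did not pass (exact permutation p = 0.0469, adjusted p = 0.0757).

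Il34 encodes the second CSF1R ligand, best known from neurons and keratinocytes. Tumor cells held 41.3, 28.3, 61.2 and 78.9 CPM in irradiated tumors 1 to 4 and 47.1, 41.9 and 51.0 CPM in control tumors 1 to 3, so the irradiated tumors enclosed the control range on both sides. Stromal cells held 80.7 ± 43.3 CPM (SD, n = 7), higher than tumor cells in 5 of 7 tumors, a difference within its spread (exact permutation p = 0.109, adjusted p = 0.170). Myeloid and T/NK cells held 0.555 ± 0.245 and 0.415 ± 0.532 CPM. Tumor cells exceeded myeloid cells by 4.99 ± 0.57 log2 units in 7 of 7 tumors (exact permutation p = 0.0156, adjusted p = 0.0345).

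The stromal Il34 signal came from pericytes. The pericyte gate, defined by markers such as Rgs5 and Notch3, read 206, 340, 311 and 389 CPM in irradiated tumors 1 to 4 and 244, 190 and 341 CPM in control tumors 1 to 3. Every one of these values lay above every tumor cell value. Fibroblast gated cells read 16.6 CPM pooled (12.1 to 22.1) and endothelial cells 11.7 CPM (8.76 to 15.2). Pericytes exceeded fibroblasts by 5.26 ± 2.50 log2 units in 7 of 7 tumors (exact permutation p = 0.0156, adjusted p = 0.0345). With doubled thresholds 6 tumors could be compared and that call was lost, but 6 tumors cannot reach an exact permutation p of 0.0156. The fibroblast gate of irradiated 4 held 2 cells, with no Il34 UMI. After thinning, 41.2% of pericytes and 7.75% of tumor cells had an Il34 UMI, against 0.0693% in the macrophage gate. The pericyte gate left out 4 irradiated and 7 control cells at that depth.

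**Figure D2:**
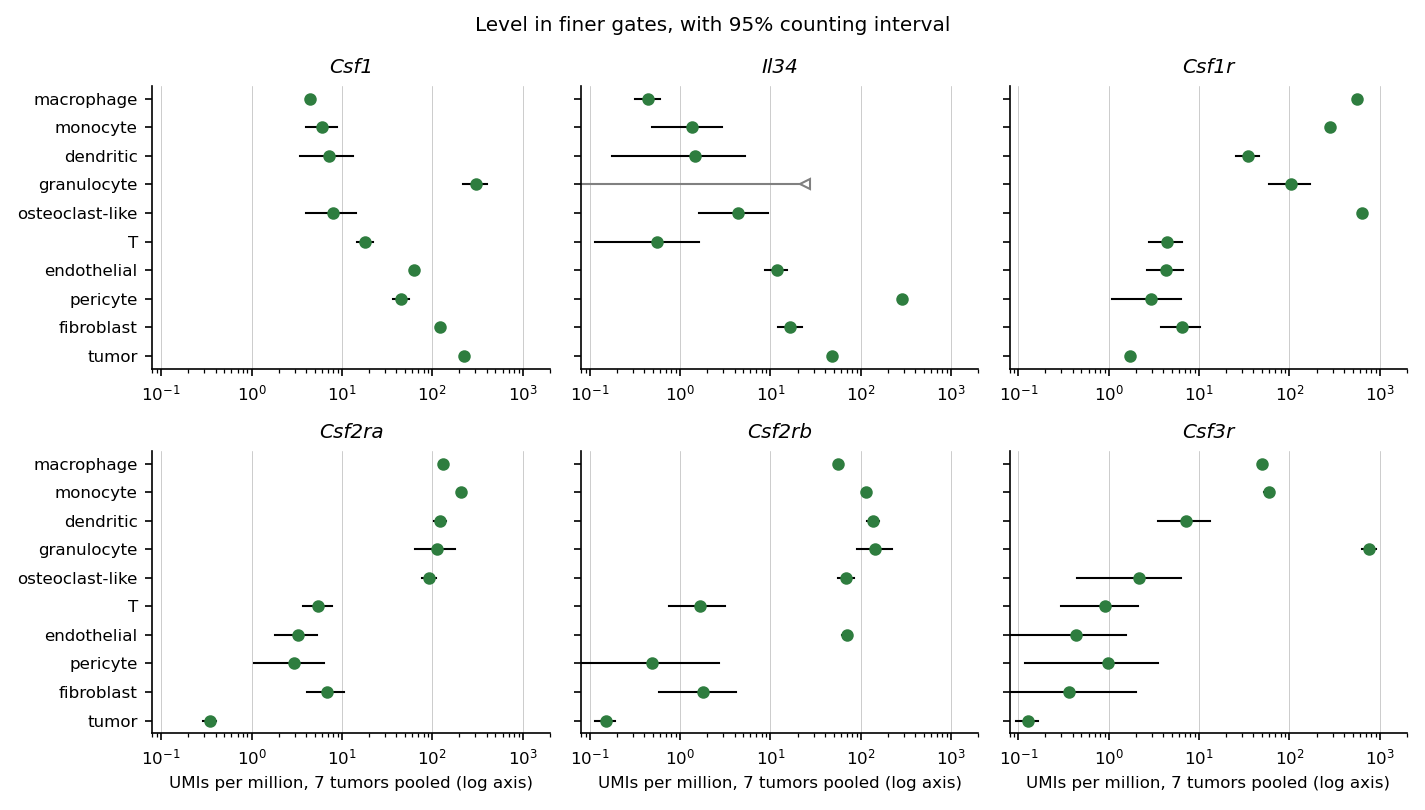
Level in CPM pooled over 7 tumors, on a log axis, for 6 of the genes in the finer gates and in tumor cells; points are pooled levels, lines are 95% Poisson intervals, and the open gray triangle is the upper bound where no UMI was found. Il34 peaks in the pericyte gate at 286 CPM, Csf3r in the granulocyte gate at 762 CPM, and Csf2rb reads 69.5 CPM in endothelial cells where Csf2ra reads 3.24 CPM.

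The ligands occurred together in tumor cells slightly more often than their separate shares would give. At 2000 UMIs, 32.5% ± 6.0 of tumor cells had Csf1, 8.25% ± 2.59 had Il34 and 3.32% ± 1.43 had both (mean and SD over 7 tumors), where the product of the single shares was 2.79%. The joint share was above the product in 7 of 7 tumors. Cells of 1 tumor are not replicates, so this is given as a description with no test.

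Csf2 was barely detected. T/NK cells held 26 UMIs in 19 of 1441 cells, at 5.13, 11.9, 1.10 and 4.30 CPM in irradiated tumors 1 to 4 and 2.17, 0 and 6.10 CPM in control tumors 1 to 3. A level of 0 came from control 2, and no tumor had more than 9 UMIs. Tumor cells had 106 UMIs in 40 of 16434 cells, or 0.244 CPM (0.200 to 0.295), and 48 of the 106 were in control 3. Stromal cells had none, which allows up to 0.317 CPM (3 counts over the pooled stromal UMIs). T/NK cells exceeded tumor cells in 6 of 7 tumors, which did not pass (exact permutation p = 0.0313, adjusted p = 0.0547).

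Csf1r, the receptor of both ligands, was read almost wholly in myeloid cells. Myeloid cells held 675, 544, 481 and 392 CPM in irradiated tumors 1 to 4 and 531, 525 and 590 CPM in control tumors 1 to 3, with both extremes among the irradiated tumors. T/NK cells held 6.20 ± 4.17 CPM, stromal cells 4.11 ± 2.45 CPM and tumor cells 1.59 ± 0.46 CPM (SD, n = 7). The myeloid level exceeded the next class, T/NK, by 6.51 ± 0.97 log2 units in 7 of 7 tumors (exact permutation p = 0.0156, adjusted p = 0.0345). The pooled T/NK, stromal and tumor levels were 1.00%, 0.883% and 0.326% of the pooled myeloid level.

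Within the myeloid class pooled Csf1r was higher in macrophage and osteoclast-like gated cells than in the other gates. The osteoclast-like gate was not part of the ordering by test. Macrophage gated cells read 555 CPM pooled, osteoclast-like cells (88 cells, set by Acp5, Ctsk and related markers) 631 CPM (590 to 674), monocyte gated cells 282 CPM (267 to 298), granulocyte gated cells 105 CPM (60.1 to 171) and dendritic gated cells 34.8 CPM (25.7 to 46.2). Macrophages exceeded monocytes by 1.01 ± 0.47 log2 units and monocytes exceeded dendritic cells by 3.12 ± 0.85 log2 units, each in 7 of 7 tumors (exact permutation p = 0.0156, adjusted p = 0.0345 for both). The call of monocytes over dendritic cells was lost on the log2(CPM + 10) scale and with doubled thresholds. A pair also counts as lost where another gate came between. Dendritic and granulocyte levels could not be ordered (exact permutation p = 0.813, adjusted p = 0.853). After thinning, 65.3% of macrophage, 41.6% of monocyte and 6.47% of dendritic gated cells had a Csf1r UMI, against 0.460% of tumor cells. Of 12596 myeloid cells, 1684 lay within 1.5-fold of the monocyte threshold, 977 of the macrophage, 290 of the dendritic, 22 of the granulocyte and 5 of the osteoclast-like threshold.

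Csf2ra encodes the subunit that binds GM-CSF and was also highest in myeloid cells. Its myeloid level was 119, 157, 143 and 163 CPM in irradiated tumors 1 to 4 and 133, 98.7 and 135 CPM in control tumors 1 to 3. It exceeded T/NK cells, the next class at 8.88 ± 5.26 CPM, by 3.98 ± 0.90 log2 units in 7 of 7 tumors (exact permutation p = 0.0156, adjusted p = 0.0345). Monocyte gated cells led at 209 CPM pooled (196 to 223), above macrophage gated cells at 133 CPM (131 to 135) in 7 of 7 tumors, by 0.50 ± 0.27 log2 units (exact permutation p = 0.0156, adjusted p = 0.0345), while Csf1r had the opposite order of these 2 gates. Dendritic gated cells read 122 CPM (104 to 142), which did not differ from macrophages beyond the spread (5 of 7 tumors, exact permutation p = 0.484, adjusted p = 0.568).

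Csf2rb was shared by myeloid and endothelial cells. Myeloid cells held 62.5, 56.6, 65.2 and 52.7 CPM in irradiated tumors 1 to 4 and 67.7, 55.9 and 71.3 CPM in control tumors 1 to 3. Stromal cells followed at 36.1 ± 14.1 CPM, lower in 6 of 7 tumors, a difference that did not pass (exact permutation p = 0.0469, adjusted p = 0.0757). The stromal signal was endothelial. Endothelial cells read 55.7, 90.8, 77.3 and 76.1 CPM in irradiated tumors 1 to 4 and 58.9, 95.7 and 55.8 CPM in control tumors 1 to 3, while fibroblast gated cells read 1.80 CPM pooled (0.584 to 4.20) and pericytes 0.490 CPM (0.0124 to 2.73). Endothelial cells exceeded fibroblasts by 5.25 ± 1.25 log2 units in 7 of 7 tumors (exact permutation p = 0.0156, adjusted p = 0.0345). That call was lost with doubled thresholds, where 6 tumors could be compared, too few to reach an exact permutation p of 0.0156. The fibroblast gate of irradiated 4 held 2 cells, with no Csf2rb UMI.

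The alpha subunit did not follow Csf2rb into endothelial cells. They held 322 Csf2rb UMIs and 15 Csf2ra UMIs, and Csf2ra stood at 3.24 CPM (1.81 to 5.34), close to the 2.94 CPM of pericytes. After thinning, 14.4% ± 3.8 of endothelial cells had Csf2rb, 0.739% ± 0.719 had Csf2ra and 0.0706% ± 0.138 had both. In macrophage gated cells the shares were 10.3% ± 1.3 for Csf2rb, 22.6% ± 2.9 for Csf2ra and 2.41% ± 0.35 for both. Among myeloid gates the pooled Csf2rb level was 145 CPM (90.6 to 219) in granulocyte, 136 CPM (118 to 157) in dendritic, 114 CPM (104 to 124) in monocyte and 56.2 CPM (54.6 to 57.7) in macrophage gated cells. The granulocyte value rests on 22 UMIs in 5 of 7 tumors, and by tumor on the log2 scale it could not be told from the macrophage level (exact permutation p = 0.625, adjusted p = 0.691). Dendritic cells exceeded macrophages in 6 of 7 tumors (exact permutation p = 0.0313, adjusted p = 0.0547).

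The mouse has a near copy of this gene, Csf2rb2, whose product is the beta subunit used by the IL-3 receptor. It lies 20.03 kb away at chr15:78282507-78305721 on the opposite strand. In the longest annotated transcripts, 8.19% of the 90-base windows of Csf2rb were found unchanged in Csf2rb2, and 0% of those in the last 600 bases, where a 3′ assay reads. Reads from more upstream priming could still be split between the copies. For every 100 Csf2rb UMIs there were 52.4 to 108 Csf2rb2 UMIs in endothelial cells and 22.6 to 32.0 in myeloid cells, by tumor. The ratio was higher in endothelial cells in 7 of 7 tumors, by 1.50 ± 0.26 log2 units (exact sign-flip permutation p = 0.0156, chosen after the values were seen). The level of Csf2rb2 itself was 51.4 CPM in endothelial and 16.3 CPM in myeloid cells.

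Csf3r was read mainly in myeloid cells, at 58.1, 52.6, 45.4 and 47.3 CPM in irradiated tumors 1 to 4 and 42.9, 39.8 and 57.4 CPM in control tumors 1 to 3. The other 3 classes each averaged under 1 CPM, and neighbors among them in that order did not differ beyond their spread (T/NK over stromal and stromal over tumor, exact permutation p = 0.500 and 0.266, adjusted p = 0.568 and 0.360). Myeloid cells exceeded T/NK cells by 4.85 ± 0.82 log2 units in 7 of 7 tumors (exact permutation p = 0.0156, adjusted p = 0.0345). Granulocyte gated cells read 762 CPM pooled (630 to 914), with 187 CPM in control 1 as the lowest tumor, above monocytes by 3.54 ± 1.20 log2 units in 7 of 7 tumors (exact permutation p = 0.0156, adjusted p = 0.0345). Because they were 59 cells, they held 116 of the 4990 myeloid Csf3r UMIs, and macrophage gated cells held 4460. Macrophages read 49.3 CPM (47.9 to 50.8), monocytes 59.6 CPM (52.6 to 67.2), and these 2 gates did not differ beyond the spread (4 of 7 tumors, exact permutation p = 0.156, adjusted p = 0.226). Dendritic cells at 7.25 CPM (3.48 to 13.3) lay below macrophages in 7 of 7 tumors (exact permutation p = 0.0156, adjusted p = 0.0345), and osteoclast-like cells read 2.18 CPM (0.449 to 6.37).

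The genes with the most similar pattern over the 28 class-by-tumor sums, by Pearson r of log2(CPM + 1) among 11554 other genes with a mean of at least 5 CPM, are given as a description, since the 28 points share 7 libraries. For Csf1r they were C1qa (r = 0.99), Mrc1 (0.99) and C1qc (0.99), and both C1q genes belong to the list that set the myeloid class. For Csf3r they were Clec4a2, Daglb and Csf1r, each with r = 0.98. For Csf2ra those given are Efhd2 (0.97) and Pitpna (0.97). For Csf2rb they were Ehd4 (0.98), Lmo2 (0.97), a factor of blood and endothelial cells, and Cryzl2 (0.96). For Il34 they were Tpm2 (0.99), Slc6a9 (0.99) and Afap1l2 (0.99), and for Csf1 they were Fto, Ppp3ca and Kat6b, each with r = 0.97. For Csf2, over 11555 genes, they were Gm47015, Lta and Ncr1, with r between 0.84 and 0.85. Ncr1 belongs to the list that set the T/NK class.

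The shares of all UMIs of a gene depend on the number of cells recovered as well as on the level per cell. Of the Csf1 UMIs in the 4 classes, 98.5% ± 0.4 were in tumor cells and 0.746% ± 0.266 in stromal cells (SD, n = 7). Of the Il34 UMIs 96.0% ± 2.7 were in tumor cells and 3.74% ± 2.59 in stromal cells. Myeloid cells held 98.6% ± 0.7 of Csf1r, 98.2% ± 0.8 of Csf2ra, 98.7% ± 0.5 of Csf3r and 93.7% ± 2.5 of Csf2rb UMIs, with 4.94% ± 2.59 of Csf2rb in stromal cells. If each class were given the same number of cells, stromal cells would hold 39.1% of Il34 and 41.9% of Csf2rb. Tumor cells would still hold 86.4% of Csf1 and 60.6% of Il34. Myeloid cells would hold 97.5% of Csf1r, 92.2% of Csf2ra, 96.7% of Csf3r and 55.4% of Csf2rb. These shares are not corrected for depth, and the median was 22026.5 UMIs in tumor cells and 7744 in stromal cells. In CPM the pooled stromal Il34 level was 150% of the tumor level, a difference within its spread by tumor. Between groups, 0 of 23 shares with cells as recovered passed an exact permutation test after adjustment (lowest adjusted p = 0.219). The lowest p was 0.0286, the smallest this test allows, so a few shares alone could not pass. It was reached by Csf1r in myeloid (99.1% ± 0.4 irradiated, 97.9% ± 0.5 control) and tumor cells and by Csf2ra in tumor cells. In sums of a class, fewer cells of a type and less RNA per cell cannot be told apart.

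**Figure D3:**
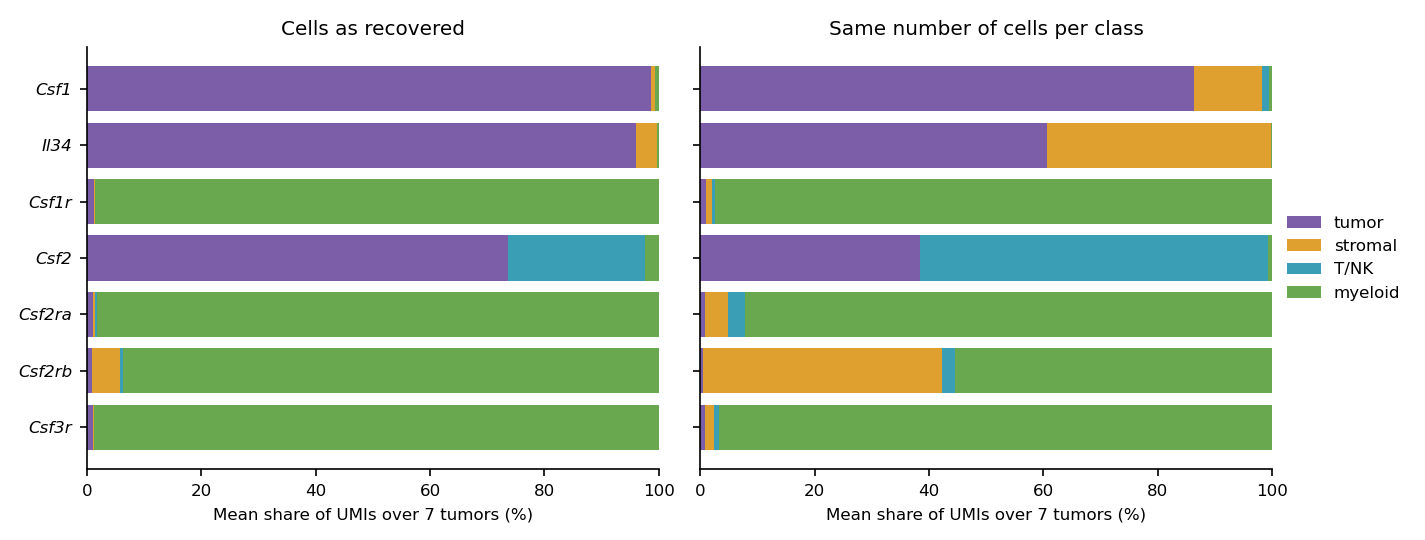
Mean share of the UMIs of each gene held by tumor, stromal, T/NK and myeloid cells over 7 tumors, in percent, with cells as recovered (left) and with the same number of cells in each class (right). The stromal share is small for all 7 genes on the left and reaches 39.1% for Il34 and 41.9% for Csf2rb on the right. Neither side is corrected for UMIs per cell.

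The question of the design was whether these levels differed between irradiated and control tumors at day 21. With edgeR's quasi-likelihood test on summed UMIs and Benjamini-Hochberg adjustment, 0 genes passed an adjusted p of 0.05 in tumor (17506 tested), stromal (11160), T/NK (7809) or myeloid cells (13063), so the background was 0% in each. At an unadjusted p of 0.05 edgeR had 240 genes (1.37%), 374 (3.35%), 392 (5.02%) and 674 (5.16%) in that order. DESeq2 called 0, 3, 3 and 4, none of them among the 7 genes, whose lowest adjusted p with DESeq2 was 0.524. Of the 7 genes, 5 passed the filter on low counts in tumor cells, 3 in stromal, 1 in T/NK and 5 in myeloid cells. A separate exact permutation test of CPM covered the 35 ways to split 7 tumors, and its smallest two-sided p is 0.0286. It was run for the 23 pairs of gene and class with at least 20 UMIs, and 0 of 23 passed after adjustment. The 1 pair at that smallest p, Csf1r in tumor cells, had an adjusted p of 0.657. A single pair could therefore not pass, so the count of 0 says little of any 1 pair.

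The ligands did not differ beyond the spread between tumors. Csf1 in tumor cells averaged 252 ± 55 CPM in irradiated and 211 ± 38 CPM in control tumors, with 2 of 4 irradiated tumors above all controls (exact permutation p = 0.314, adjusted p = 0.745). The edgeR log2 fold change was 0.19 (SE 0.16, 95% interval -0.16 to 0.55, adjusted p = 0.999). Within the library sets the difference was 0.124 CPM in the first and 19.6 CPM in the second, against 41.0 CPM over all tumors. Il34 in tumor cells averaged 52.4 ± 22.3 and 46.7 ± 4.5 CPM (exact permutation p = 0.686, adjusted p = 0.966), and its difference of 5.79 CPM turned to -5.17 CPM within the first set and to -3.04 CPM without irradiated 4.

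In stromal cells Il34 averaged 99.8 ± 49.1 CPM in irradiated and 55.1 ± 17.3 CPM in control tumors, with 3 of 4 irradiated tumors above all controls (exact permutation p = 0.229, adjusted p = 0.745; edgeR log2 fold change 0.82, SE 0.41, adjusted p = 1.00). The share of stromal UMIs from the pericyte gate was 18.5%, 36.1%, 44.5% and 17.8% in irradiated tumors 1 to 4 and 19.9%, 10.1% and 18.4% in control tumors 1 to 3. The stromal Il34 level was highest in the pair of tumors with the highest pericyte share, irradiated 2 and irradiated 3. Within the pericyte gate Il34 averaged 311 ± 77 and 258 ± 76 CPM (exact permutation p = 0.400, adjusted p = 0.808 over 11 tests in finer gates). The library sets gave differences in the whole stromal class of -1.40 CPM and 51.5 CPM. Csf1 in stromal cells averaged 71.5 ± 7.1 and 81.2 ± 22.7 CPM (exact permutation p = 0.400, adjusted p = 0.745).

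Csf1 in T/NK cells had the largest fold change of any tested pair with a ligand, an edgeR log2 fold change of -1.11 (SE 0.58, 95% interval -2.41 to 0.19, adjusted p = 0.981). The means were 12.9 ± 6.0 CPM in irradiated and 27.3 ± 22.5 CPM in control tumors (exact permutation p = 0.343, adjusted p = 0.745), and the control mean held the cell with 24 UMIs described above. Within set 1 the difference was -15.3 CPM and within set 2 it was 2.34 CPM. Csf2 in T/NK cells averaged 5.60 ± 4.52 and 2.75 ± 3.09 CPM (exact permutation p = 0.457, adjusted p = 0.745), on 26 UMIs in all.

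**Figure D4:**
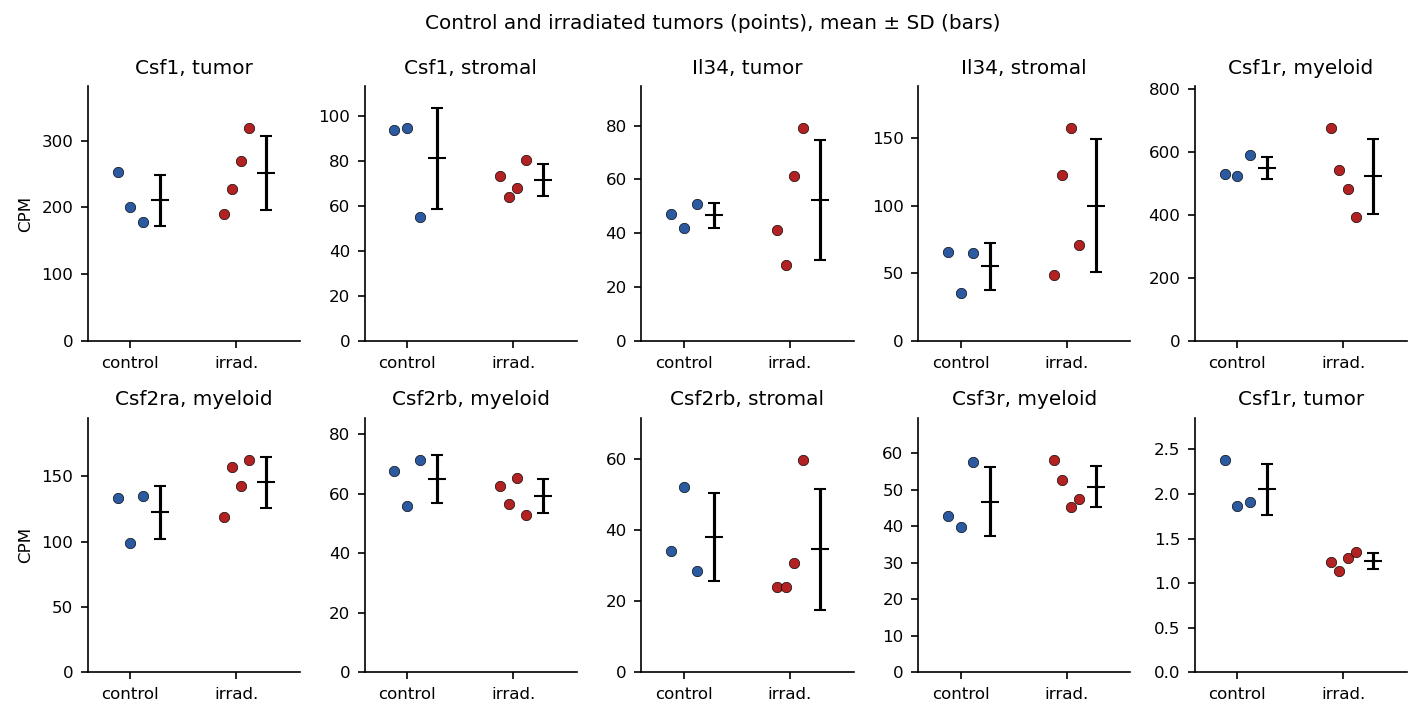
CPM in each control (blue) and irradiated (red) tumor for 10 pairs of gene and cell class, with the group mean and SD as black bars beside the points; every axis starts at 0. The groups overlap in 9 of the 10 panels, and in the last, Csf1r in tumor cells, the 4 irradiated tumors lie below the 3 controls at levels under 2.5 CPM.

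Receptor levels in myeloid cells did not differ beyond the spread between tumors. Csf1r averaged 523 ± 119 CPM in irradiated and 549 ± 36 CPM in control tumors (exact permutation p = 0.800, adjusted p = 0.986; edgeR log2 fold change -0.10, SE 0.18, 95% interval -0.50 to 0.31, adjusted p = 0.927). The irradiated tumors were more spread, with 1 above and 2 below all controls. Irradiated 4, the lowest at 392 CPM, also had the largest share of monocyte gated cells, 18.8% of its myeloid cells against 2.14% to 7.34% in the other tumors. Its macrophage gated cells read 422 CPM, against 503 to 703 CPM in the other tumors. The part of the monocyte share in its Csf1r level was not tested. Without irradiated 4 the difference in myeloid cells became 18.0 CPM, and within the library sets it was 117 CPM and -58.7 CPM.

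Csf2ra in myeloid cells averaged 145 ± 20 CPM in irradiated and 122 ± 21 CPM in control tumors, with 3 of 4 irradiated tumors above all controls (exact permutation p = 0.200, adjusted p = 0.745; edgeR log2 fold change 0.22, SE 0.14, 95% interval -0.10 to 0.54, adjusted p = 0.831). In monocyte gated cells the means were 215 ± 27 and 158 ± 46 CPM, and in macrophage gated cells 141 ± 18 and 121 ± 19 CPM (exact permutation p = 0.143 and 0.200, adjusted p = 0.733 for both). Csf2rb in myeloid cells averaged 59.2 ± 5.6 and 65.0 ± 8.1 CPM (exact permutation p = 0.343, adjusted p = 0.745; edgeR log2 fold change -0.16, SE 0.11, adjusted p = 0.840). Csf2rb in endothelial cells averaged 75.0 ± 14.5 and 70.1 ± 22.2 CPM (exact permutation p = 0.800, adjusted p = 0.914). Csf3r in myeloid cells averaged 50.8 ± 5.7 and 46.7 ± 9.4 CPM (exact permutation p = 0.486, adjusted p = 0.745; edgeR log2 fold change 0.09, SE 0.15, adjusted p = 0.910).

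Among the 23 pairs, 1 had groups that did not overlap. Over all genes tested, the share without overlap was 2.52% in tumor, 4.47% in stromal, 6.63% in T/NK and 5.35% in myeloid cells, and 1.09% in tumor cells lay lower in every irradiated tumor. It was Csf1r in tumor cells, at 1.24, 1.14, 1.28 and 1.35 CPM in irradiated tumors 1 to 4 and 2.38, 1.86 and 1.91 CPM in control tumors 1 to 3 (exact permutation p = 0.0286, the smallest possible, adjusted p = 0.657; edgeR log2 fold change -0.77, SE 0.18, unadjusted p = 0.00259, adjusted p = 0.999). These are traces of 34 to 249 UMIs per tumor. Other transcripts of leukocytes lay at a like share of their myeloid level in tumor cells, at 0.350% for Tyrobp, an adaptor of myeloid cells, and 0.207% for Ptprc, the leukocyte antigen CD45, against 0.326% for Csf1r. Tyrobp in tumor cells was likewise lower in all 4 irradiated tumors, 4.27 ± 0.92 against 6.61 ± 1.01 CPM (exact permutation p = 0.0286), while Ptprc (1.16 ± 0.32 against 1.54 ± 0.24 CPM), Fcer1g (9.64 ± 2.44 against 13.9 ± 3.9 CPM) and Cd74 (6.19 ± 4.63 against 9.31 ± 3.81 CPM) overlapped (exact permutation p = 0.171, 0.200 and 0.371). Apoe did not overlap, at 22.4 to 46.1 CPM in irradiated and 56.2 to 61.8 CPM in control tumors (exact permutation p = 0.0571), and Ctsb, at 10.0% of its myeloid level, read 232 ± 22 against 235 ± 16 CPM (exact permutation p = 0.886). Spi1 had an edgeR log2 fold change of -0.69 in the same cells (adjusted p = 0.999). These genes were chosen after their values were seen, and the part of free myeloid RNA in the difference was not tested.

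A relation between the ligand and the cells that carry its receptor was looked for across tumors. The level of Csf1 in tumor cells and the myeloid share of the gated cells, whose highest value was 59.9% in irradiated 4, had a Pearson r of 0.53 (exact permutation p = 0.228, 5040 orders) and a Spearman rho of 0.18 (exact permutation p = 0.713) over 7 tumors, the 1 relation computed. Without the 2 tumors farthest from the median Csf1 level, irradiated 4 and control 3, r was -0.042. Leaving out the tumors most extreme in Csf1 narrows its range and can lower r by itself. The library sets hold 3 and 4 tumors, too few for a value of their own.

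The surrounding pathway was read from a list of 58 genes in 6 roles. By edgeR 46 of them were tested in tumor, 38 in stromal, 39 in T/NK and 52 in myeloid cells, and 0 passed an adjusted p of 0.05 in either direction in each class (edgeR), against a background of 0%. At an unadjusted p of 0.05 there were 5 of 46, 1 of 38, 1 of 39 and 3 of 52 in that order, where all genes tested gave 1.37%, 3.35%, 5.02% and 5.16%. With every gene of at least 1 UMI tested, 1 gene of the list passed, Pparg in T/NK cells, which encodes a lipid-sensing nuclear receptor (edgeR log2 fold change -1.39, SE 0.34, adjusted p = 0.0156, against an adjusted p of 0.974 with the filter on low counts). It is named because it was the only such call. The median log2 fold change over the list was -0.08, -0.01, -0.06 and 0.04 in that order. By level, 25 of the 58 were highest in myeloid cells, 18 in T/NK, 11 in stromal and 3 in tumor cells, and 1, Il3, had no UMI in any of them.

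**Figure D5:**
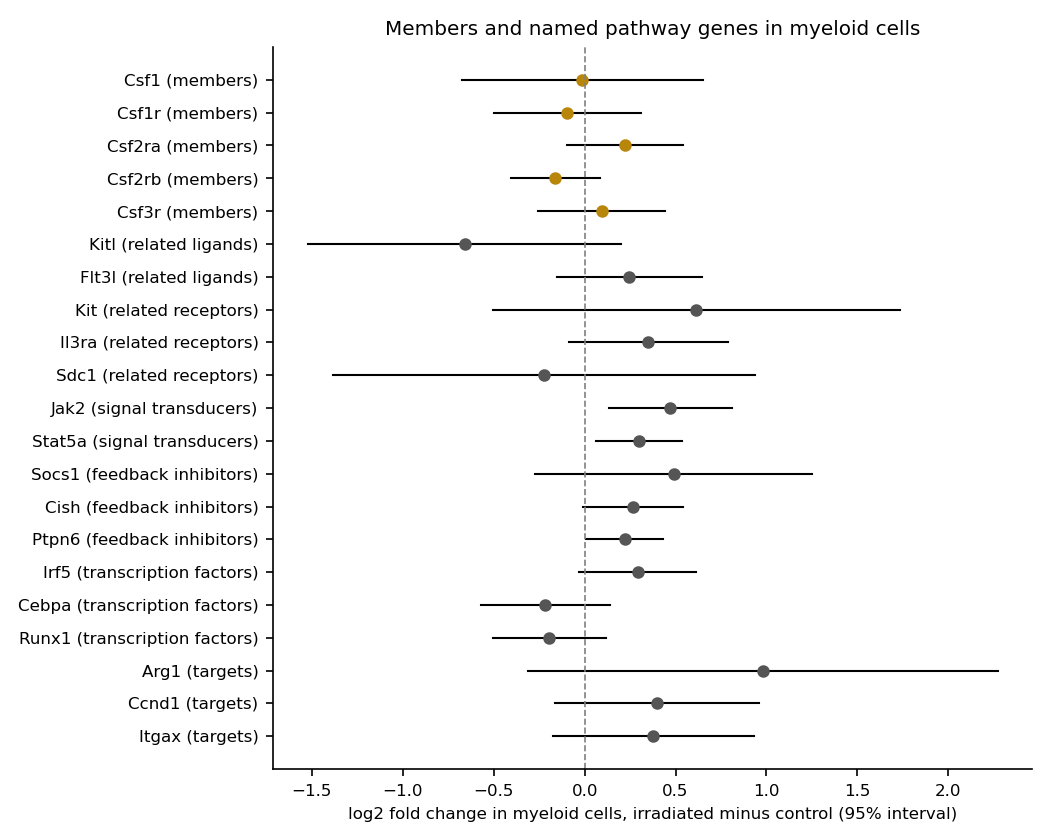
edgeR log2 fold change, irradiated minus control, with its 95% interval, in myeloid cells for the 5 genes that passed the low-count filter (gold) and for the other pathway genes described by value (gray). No gene passed an adjusted p of 0.05, and the intervals of Jak2, Stat5a and Ptpn6 lie above 0.

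In myeloid cells, members of the list among those with the largest changes in each role are given by value. Jak2, the kinase bound to the beta subunit, averaged 98.8 ± 15.7 CPM in irradiated and 69.9 ± 12.6 CPM in control tumors (edgeR log2 fold change 0.47, SE 0.15, unadjusted p = 0.0118, adjusted p = 0.831), with 80.5 CPM in irradiated 1 just under the 81.1 CPM of control 1. Stat5a, a transcription factor that JAK2 activates, averaged 14.7 ± 1.3 and 11.8 ± 0.2 CPM, with no overlap (0.30, SE 0.10, unadjusted p = 0.0184, adjusted p = 0.831), where 3.05% of all genes tested in myeloid cells lay higher in every irradiated tumor.
Among feedback inhibitors Cish, a STAT5 target, averaged 10.2 ± 0.7 and 8.30 ± 0.89 CPM, again with no overlap (0.27, SE 0.12, adjusted p = 0.831). Ptpn6, a phosphatase that restrains cytokine receptors, averaged 165 ± 11 and 139 ± 15 CPM (0.22, SE 0.09, unadjusted p = 0.0419, adjusted p = 0.831), and Socs1 12.5 ± 5.7 and 8.76 ± 0.85 CPM (0.49, SE 0.33, adjusted p = 0.840).
Among targets Arg1, which encodes arginase, read 31.3, 52.8, 115 and 184 CPM in irradiated tumors 1 to 4 and 57.1, 45.9 and 39.6 CPM in control tumors 1 to 3 (0.98, SE 0.55, adjusted p = 0.831), so that the irradiated tumors ranged from below to above all controls. Ccnd1, a cyclin, and Itgax, the integrin CD11c, had log2 fold changes of 0.40 (SE 0.24) and 0.38 (SE 0.24), both with an adjusted p of 0.831.
Among transcription factors Irf5, Cebpa and Runx1 had 0.29, -0.22 and -0.20 (adjusted p = 0.831, 0.851 and 0.847). Among related receptors Kit, Il3ra and Sdc1 had 0.61, 0.35 and -0.22 (adjusted p = 0.854, 0.831 and 0.937), and among related ligands Kitl and Flt3l had -0.66 and 0.24 (adjusted p = 0.831 and 0.851), all with overlapping groups.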

How the data were processed

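Single cells of 7 tumors were captured with the 10x 3′ v3.1 kit. The deposited matrices hold counts (UMIs per gene and cell) made by the authors with Cell Ranger on mm10. The file headers name version 8.0.0. All deposited values were used as raw counts. Cells beyond 3 median absolute deviations on UMIs, genes (both on a log scale), mitochondrial or ribosomal share were left out. Classes came from UMIs of marker lists per 10000 UMIs, with thresholds set after seeing the marker distributions and not the levels of the genes reported. Cells passing gates of more than 1 class were left out (998), as were 1842 cells assigned to no class. The latter include cells over the tumor threshold that carried a Xist UMI and passed no other gate. Another 85 cells, over the threshold of an epithelial, erythroid, mast or basophil, or B cell list, were left out too. Scrublet marked 692 kept cells (2.02%), which stayed in. Marker lists, pathway list and genes were chosen with earlier results of these data known.

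UMIs were summed per tumor and class, the tumor being the replicate. Groups were compared with edgeR 4.0.16 (TMM, filterByExpr, robust quasi-likelihood fit, all 7 tumors, group as the only term) in R 4.3.3. DESeq2 1.42.0 was run as an alternative, and single genes were compared by exact permutation of tumors on CPM. The edgeR fit was tested on simulated data, and DESeq2 was not. Classes were compared by sign flips within tumors on log2(CPM + 1). p-values were Benjamini-Hochberg adjusted over all genes of a class, 23 pairs, 42 neighboring pairs or 11 finer-gate pairs. Among 23, 11 or 6 permutation tests between groups, 1 test alone at the smallest possible p could not pass. Shares of cells with a UMI were computed at 2000 UMIs as the exact hypergeometric chance of a UMI being kept. Named genes were the 7 genes, the 3 largest changes per pathway role in myeloid cells, and the 3 genes most alike in pattern, of which some are not reported here. Of the listed gene IDs, 1735 are absent from GENCODE M21, so that annotation is not the one of the files and was used for positions alone.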

Additional observations from a re-analysis of the deposited data

Results flagged for a closer look

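Among 34 tests for a tumor far from the rest of the irradiated group (gap over range above 0.829 for 4 tumors), irradiated 1 stood apart for Csf1 in T/NK cells, with 21.8 CPM against 10.5 CPM in the next tumor, and in the T gate, with 22.2 against 11.7 CPM. The T gate holds most T/NK cells, so these are largely the same UMIs (15 in the T gate and 17 in the class), and chance flags about 1 in 20 groups. None of 6 tests of whether the difference between groups itself differed between 2 cell classes (Csf1 and Il34 in tumor against stromal cells, Csf2rb in myeloid against stromal cells, and Csf1r, Csf2ra and Csf2rb in macrophage against monocyte gated cells) passed, the lowest exact permutation p being 0.143 (adjusted p = 0.686).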

How the results depend on the processing

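The counts of genes past an adjusted p of 0.05 stayed at 0 in tumor cells under every alternative run. With DESeq2 they were 4 in myeloid, 3 in T/NK and 3 in stromal cells. With every gene of at least 1 UMI they were 115 in T/NK (18 higher, 97 lower) and 1 in stromal cells, and with no filter on cells 1 in T/NK cells. Leaving out each tumor gave 0 to 1 in T/NK cells and 0 in the other classes. None of the 7 genes was called under any of these, and 1 gene of the pathway list was, Pparg in T/NK cells with every gene. The cause of the added calls was not tested.

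Of 10 differences between groups followed through the alternatives, none of them called, those that turned direction were Il34 in tumor cells (-5.17 CPM within library set 1, -3.04 to 13.8 CPM leaving out each tumor), Il34 in stromal cells (-1.40 CPM within set 1, 25.6 to 61.7), Csf1r in myeloid cells (117 CPM within set 1, -76.2 to 18.0) and Csf2rb in stromal cells (1.01 CPM with halved gate thresholds, 0.512 percentage points as thinned share, 4.12 CPM within set 2, -11.8 to 3.43). Within at least 1 library set 9 of all 23 differences turned direction, and 7 of 11 in finer gates. Between classes 17 to 19 of 42 neighboring pairs passed, against 19 as reported. With doubled thresholds 12 of those 19 remained, and a pair also counts as lost where another class came between. The relation of Csf1 to the myeloid share turned to r = -0.042 without 2 tumors. Doublet removal changed no count of called genes.

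The labels give both groups replicate numbers, and a replicate block on numbers 1 to 3 left the count of called genes at 0 in each class. Correlations gave no sign of a pairing by number: of 12 same-numbered pairs over 4 classes, 1 had a correlation of deviations over 0.1 (-0.65 to 0.16). These are the same 3 pairs of tumors read in 4 classes, too few to exclude a pairing. Few UMIs or cells stand behind the Csf2 values (134 UMIs in the 4 classes) and the granulocyte (59 cells), osteoclast-like (88) and dendritic (185) gates. The fibroblast gate (215 cells) held 2 cells in irradiated 4.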

Other observations

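Genes near the 7 that were not part of them showed further patterns. Flt3, the receptor of another growth factor of blood precursors, read 235 CPM in dendritic gated cells and 1.32 CPM in macrophage gated cells. Kitl, the ligand of Kit, read 298 CPM in stromal cells, 39.3 CPM in tumor cells and 5.19 CPM in myeloid cells. Csf3, which encodes the ligand of CSF3R, had 21 UMIs in stromal cells, all 21 of them in the endothelial gate (4.54 CPM), and 42 UMIs in tumor cells (0.0968 CPM). Il3 had no UMI in any of the 4 classes, and Il5 had 14 UMIs in T/NK cells and 110 in tumor cells. These values come with no test.

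The tumor class of control 3 held 48 of the 106 Csf2 UMIs read in tumor cells, and 1 tumor cell of irradiated 3 held 17. Without that cell the level in irradiated 3 went from 0.366 to 0.0549 CPM. In osteoclast-like cells 10 of 11 Csf1 UMIs came from 1 cell of irradiated 4.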
